A study of Homo sapiens with 4 samples.

Results

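BACH1 binding was examined at 5 genes of selective autophagy and protein quality control, SQSTM1, CALCOCO2, GABARAPL1, MAP1LC3B and HERPUD1. The members are the peaks whose summit, the position of highest signal, lay in a fixed window around 1 of these genes. There were 11 such peaks among 13661 in all, 6 of 10246 in Calu3 and 5 of 3415 in 16HBE14o-. The 5 windows ran from 111 to 135 kb and covered 604 kb together. Each was a core of 11 to 35 kb, which stands for the gene to the nearest kb, with a flank of 50 kb on either side. Calu3 is a human lung adenocarcinoma line, and 16HBE14o- is a line of human bronchial epithelial cells. Both lines were grown in DMEM with serum, carried no label of a treatment or edited gene, and were profiled by ChIP-seq with a rabbit antibody against BACH1, in 2 replicates each. The study's title ties BACH1 to oxidative stress and to the CFTR gene. The authors deposited 1 peak list per line, made from both replicates, so no value below has a replicate spread, none could be tested between the lines, and the read depth is unknown. Peak lists hold no expression, so the identity of the lines could not be checked against marker genes.

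BACH1 is a haem-binding basic leucine zipper factor. As a dimer with a small MAF protein it represses genes that NRF2 activates through the antioxidant response element. In selective autophagy a receptor protein holds a cargo, such as ubiquitin-tagged aggregates or damaged mitochondria, and ties it to ATG8 family proteins on the growing autophagosome membrane. SQSTM1 (p62) and CALCOCO2 (NDP52) are such receptors, and GABARAPL1 and MAP1LC3B (LC3B) are ATG8 proteins. SQSTM1 also binds KEAP1, the protein that marks NRF2 for degradation, and is itself a textbook NRF2 target. HERPUD1 is a membrane protein of the endoplasmic reticulum that serves the degradation of misfolded proteins there and is induced by the unfolded protein response.

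The windows of SQSTM1 and GABARAPL1 held peaks in both lines, and those of MAP1LC3B and CALCOCO2 in neither list. The HERPUD1 window held a peak only in the 16HBE14o- list, 21.0 kb downstream of the core. The promoters of SQSTM1 and GABARAPL1 are printed because the strongest window peaks of both lines lay inside the SQSTM1 core and at the upstream edge of the GABARAPL1 core. Single stretches of the MAP1LC3B and CALCOCO2 promoters are printed because they hold short matches to the element although no peak lay near. The sequences are from RefSeq on GRCh38.p14, whereas the peaks are on hg19, so which bases a peak covers was not measured. All 5 genes matched the RefSeq table, with 7 start sites in all: 3 for SQSTM1 and 1 for each other gene. The second SQSTM1 start lay 616 bp and the third 14512 bp after the first. The 250 bases before a start are shown 5′ to 3′, for SQSTM1 before start 3. Capitals mark matches to TGACNNNGC, the core of the antioxidant response element, or to its variant TGAGNNNGC, and in GABARAPL1 to TGACGTCA, the cyclic AMP response element.
SQSTM1, start 3, GRCh38.p14, + strand, chr5:179820655-179820904: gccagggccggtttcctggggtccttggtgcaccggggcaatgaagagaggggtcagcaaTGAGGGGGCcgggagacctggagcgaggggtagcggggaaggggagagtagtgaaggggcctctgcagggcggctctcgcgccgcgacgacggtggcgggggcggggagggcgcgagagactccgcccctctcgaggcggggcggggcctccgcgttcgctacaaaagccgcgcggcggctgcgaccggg
GABARAPL1, GRCh38.p14, + strand, chr12:10212627-10212876: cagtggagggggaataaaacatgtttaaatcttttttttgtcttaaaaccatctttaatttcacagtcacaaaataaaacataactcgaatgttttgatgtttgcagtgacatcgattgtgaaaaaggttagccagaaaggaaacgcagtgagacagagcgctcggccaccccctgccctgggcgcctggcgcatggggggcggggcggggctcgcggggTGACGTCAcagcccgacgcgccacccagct
MAP1LC3B stretch, GRCh38.p14, + strand, chr16:87392280-87392308: gcgagtcaccTGACCAGGCtgcgggctga
CALCOCO2 first stretch, GRCh38.p14, + strand, chr17:48830840-48830868: tttatttcggTGAGATTGCtgctcaggac
CALCOCO2 second stretch, GRCh38.p14, + strand, chr17:48830896-48830924: cgctcctgggGCCCGGTCAcctgaacact

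The full heptamer TGAGTCA and the longer GCTGAGTCA, which contains it and is the form that BACH1 and MAF dimers are best known for, had no match in the 250 bases before any of the 7 starts. The bases under the peaks were not searched, so this says nothing about motifs there. The leading SQSTM1 summits lay 13.6 kb from the upstream core edge, itself known only to the kb. Start 3 lay 14512 bp after the first start, so the 250 bases before it may not reach those summits. The next strongest 16HBE14o- summit at SQSTM1 lay 14.6 kb from that edge, and the wide Calu3 peak ran on past it. Whether the printed bases lie under any of these peaks was not measured. Over all 35116 RefSeq promoters, both strands searched, TGAGTCA was in 4.20% and GCTGAGTCA in 0.456%. TGACNNNGC matched once before MAP1LC3B and once before CALCOCO2, there on the other strand (GCCCGGTCA as printed), and was in 10.9% of all promoters. TGAGNNNGC matched once before SQSTM1 start 3 and once before CALCOCO2, and was in 14.8% of all promoters. TGACGTCA, searched after the GABARAPL1 promoter had been read, began 30 bases before the GABARAPL1 start and was in 1.65% of all promoters. The genes with a match to TGACNNNGC or TGAGNNNGC thus included both genes without a peak in the window, and the matches describe letters only.

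In the Calu3 list, 2 of the 5 windows held a peak (40%), where 23.9% of all 100 kb tiles of the spans covered by the lists held one. In the 16HBE14o- list, 3 of the 5 windows did (60%), against 8.73% of the tiles. Windows with peaks in both lists numbered 2 of 5, against 5.86% of the tiles, and windows with none in either list also 2 of 5, against 73.3% of the tiles. The tiles are shorter than the windows and, unlike them, not placed at genes. How much gene density contributes was not tested. Per 100 kb the windows held 0.993 Calu3 peaks and 0.828 16HBE14o- peaks, where the tiles averaged 0.344 and 0.115. These densities count neighbouring peaks separately: 3 of the 5 16HBE14o- peaks had summits within 1416 bp at SQSTM1. Of the 6 Calu3 peaks, 3 were at or above the median fold enrichment of their list. With 5 windows the exact 95% intervals of the shares were wide, from 5.27% to 85.3% in Calu3 and from 14.7% to 94.7% in 16HBE14o-. The intervals cover counting error only, as if the windows were a random draw. The 5 genes were instead chosen with earlier results of these data known, so the intervals are no test against the tile shares.

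**Figure D1:**
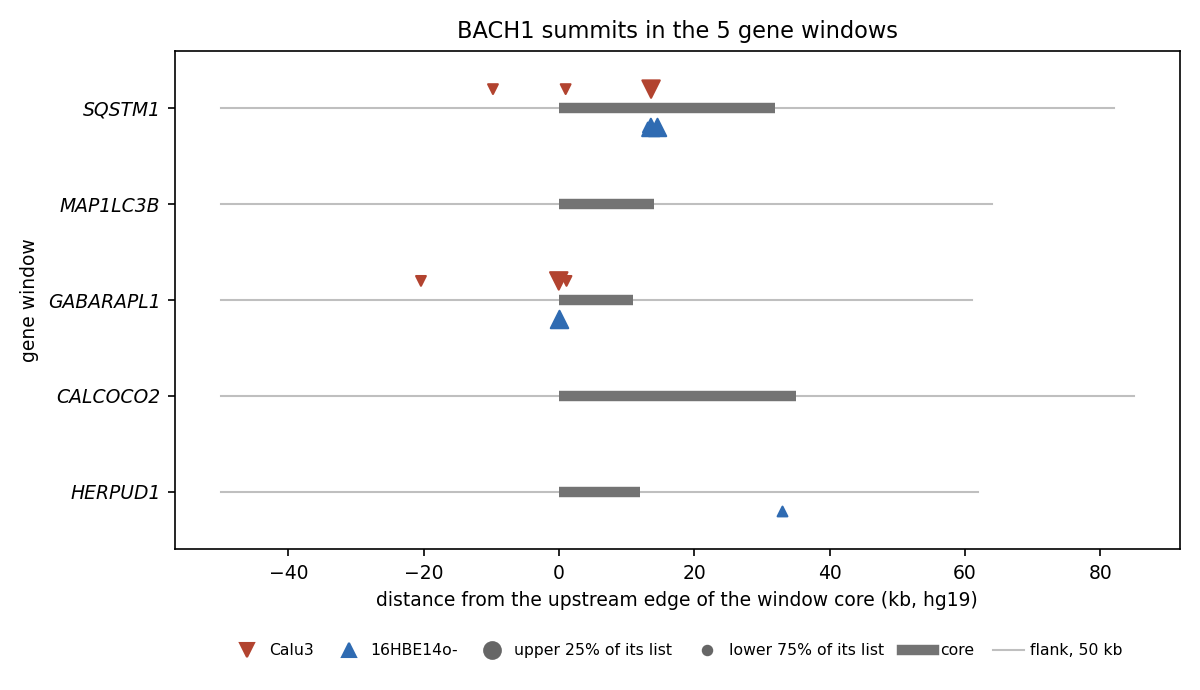
Summits of the window peaks, as distance in kb from the upstream edge of each window core (hg19), Calu3 above and 16HBE14o- below each line; large symbols are in the upper 25% of their list by peak signal. The strong peaks of both lines sit 13.6 to 14.6 kb inside the SQSTM1 core and at the edge of the GABARAPL1 core, and the MAP1LC3B and CALCOCO2 windows are empty.

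SQSTM1, the receptor that also binds KEAP1, had the strongest window peaks of both lines. In Calu3 a single peak of 2000 bp spanned positions 179245967 to 179247966 of chromosome 5. Its fold enrichment, like every enrichment, signal and q below the authors' own value for the peak, was 19.6 and ranked 211 of 10246, within the upper 2.06% of the list. Its −log10 q was 107. In 16HBE14o- 3 separate peaks of 240 bp lay within the bases of that Calu3 peak. The strongest, from 179246466 to 179246705, had a signal of 103 on the list's own unstated scale and ranked 123 of 3415. The next, from 179247442 to 179247681, had a signal of 72.2 and ranked 304. The weakest, from 179246026 to 179246265, had a signal of 40.2 and ranked 928, so the signals of the 3 differed by up to 2.56 times. The strongest summits of the lines were 28 bp apart, at 179246614 in Calu3 and 179246586 in 16HBE14o-.

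The 3 summits of 16HBE14o- were spaced 440 and 976 bp apart and spanned 1416 bp. Relative to the Calu3 summit they lay at −468, −28 and 948 bp, and their 720 bases took up part of the 2000 bases of the Calu3 peak. The Calu3 peak ranked 3 by width in its list, in which widths ran from 153 to 2234 bp with a median of 235. It was also 1 of 2 Calu3 peaks that met 3 or more peaks of 16HBE14o-, where 0.0195% of the list did so and 0.127% met 2 or more. In 16HBE14o- 30 peaks (0.878%) had at least 2 other summits within 2 kb, and the 3 at SQSTM1 were among them. These comparisons of width and spacing were chosen after the values were seen. Almost all 16HBE14o- peaks (98.4%) had the same width of 240 bp, whereas Calu3 widths varied, so the lists set peak widths differently. The contrast of 1 wide peak with 3 narrow ones cannot be told apart from that difference. Whether Calu3 binds over the whole stretch or at separate points cannot be told from 1 wide peak.

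**Figure D2:**
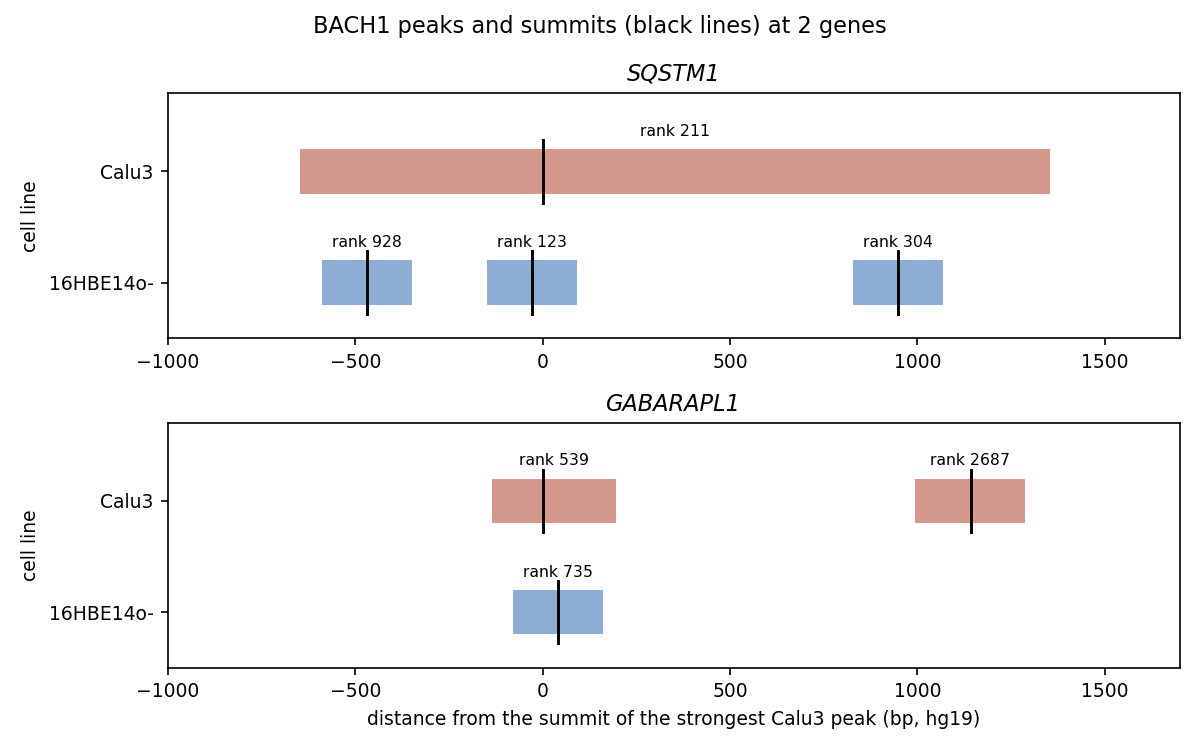
Peaks within 2 kb of the strongest Calu3 summit at SQSTM1 and GABARAPL1, as distance from that summit in bp (hg19); bars span the peak, black lines mark summits, and the text gives the rank in the list. The wide Calu3 peak at SQSTM1 contains all 3 peaks of 16HBE14o-, and the strongest GABARAPL1 peaks of the lines overlap with summits 40 bp apart.

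The summits at SQSTM1 lay inside the core, 13.6 kb from its upstream edge in Calu3 and 13.6, 14.6 and 13.1 kb from it in 16HBE14o-, from the strongest to the weakest. RefSeq lists a start site inside the gene as well as those at its upstream end, but the distance to any 1 start could not be measured without an hg19 annotation. Calu3 had 2 further, weak peaks in the window. One, from 179233845 to 179234057, lay 1.0 kb inside the upstream edge of the core, with a fold enrichment of 3.82, a q of 0.0245 and rank 5847. The other, from 179223206 to 179223364, lay 9.8 kb upstream of the core, with a fold enrichment of 3.52, a q of 0.0382 and rank 6596. Both were below the median fold enrichment of the list, 4.13, and the strongest SQSTM1 peak was 5.13 times the next. Neither met a 16HBE14o- peak, the nearest summits being 12.2 and 22.9 kb away. MGAT4B and then LTC4S are the next protein-coding genes upstream of SQSTM1 in RefSeq, so these weak peaks cannot be assigned to SQSTM1 by position.

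CALCOCO2, the receptor for bacteria and damaged mitochondria, had no peak in its window, on chromosome 17 from 46858 to 46993 kb, in either list. The nearest summits were 235.8 kb downstream of the core in Calu3, at a peak of rank 2329, and 386.7 kb downstream in 16HBE14o-, at rank 2116. Of the 5 genes, CALCOCO2 had the widest window and was the farthest from any peak of either list. As the depth of the libraries is unknown, an empty window says only that no peak was listed there.

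GABARAPL1, an ATG8 protein that receptors dock to, had its strongest peak at the upstream edge of the core in both lines. In Calu3 it spanned positions 10364835 to 10365166 of chromosome 12, with a fold enrichment of 13.6, a −log10 q of 32.0 and rank 539 (upper 5.26%). In 16HBE14o- it ran from 10364891 to 10365130, with a signal of 44.7 and rank 735 (upper 21.5%). The summits were 40 bp apart, at 10364971 in Calu3 and 10365011 in 16HBE14o-, and lay 29 bp outside and 11 bp inside the edge, whose own position is known only to the kb. A second Calu3 peak, from 10365965 to 10366256, lay 1.1 kb inside the core, with a fold enrichment of 6.08 and rank 2687. Its summit was 1144 bp from that of the first, which was 2.23 times as enriched. No 16HBE14o- peak met it, as was the case for most Calu3 peaks of like rank, of which 16.7% (95% exact interval 14.5 to 19.1) were shared. One more Calu3 peak, from 10344563 to 10344717, lay 20.4 kb upstream of the core with a fold enrichment of 3.17 and rank 7720, and its q of 0.148 was above 0.05. In RefSeq the next protein-coding gene upstream of GABARAPL1 is TMEM52B.

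MAP1LC3B, the ATG8 protein most used as an autophagosome marker, had no peak in its window, on chromosome 16 from 87375 to 87489 kb, in either list. The nearest summit of both lists lay 180.2 kb upstream of the core, at ranks 1811 in Calu3 and 340 in 16HBE14o-. Of the ATG8 pair, 1 gene thus had peaks in both lists and 1 in neither, and the same held for the pair of receptors.

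HERPUD1, the endoplasmic reticulum protein, had 1 peak in its window in the 16HBE14o- list and none in Calu3. Of all 100 kb tiles 2.87% showed this pattern, which was 855 of the 2600 tiles with a 16HBE14o- summit. The HERPUD1 pattern was thus not rare among tiles with a 16HBE14o- summit. The peak ran on chromosome 16 from 56998860 to 56999099, with a signal of 38.4 and rank 1009 (upper 29.5%). Its summit lay 21.0 kb downstream of the core, and CETP and then NLRC5 follow HERPUD1 as the next protein-coding genes in RefSeq, so the peak cannot be assigned to HERPUD1 by position. The nearest Calu3 summit to this peak was 127.9 kb away, at rank 4118. In the same 10% of the 16HBE14o- list by rank 69.3% (95% exact interval 64.1 to 74.1) of the peaks met a Calu3 peak. No summit of either list lay inside the HERPUD1 core or within 20 kb of it.

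Of the window peaks, 2 of 6 in Calu3 met a peak of the other line, against 15.3% of its whole list, and 4 of 5 in 16HBE14o- did, against 46.4%. The strongest peaks were the shared ones. Sharing ran with rank in the whole lists as well, with 53.5% in the strongest 10% of Calu3, which held both shared Calu3 window peaks, and 93.3% in the strongest 10% of 16HBE14o-, which held 2 of the 3 SQSTM1 peaks. The 4 shared 16HBE14o- peaks met only 2 Calu3 peaks, since 3 of them lay in the wide peak at SQSTM1. In the upper 25% of their lists were 2 of the 6 Calu3 and 3 of the 5 16HBE14o- window peaks. Of the Calu3 window peaks 5 of 6 had a deposited q under 0.05, against 73.3% of the list. In both lists the order of the genes by their strongest peak began with SQSTM1 and went on with GABARAPL1. In Calu3 the fold enrichments of these 2 peaks differed by 1.44 times, and in 16HBE14o- the signals differed by 2.31 times, while the SQSTM1 and HERPUD1 signals differed by 2.68 times. Without replicate values, which neighbours in these orders differ beyond error is unknown. The ranks cannot show whether binding differs between the lines, since the lists differ in length and scale.

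**Figure D3:**
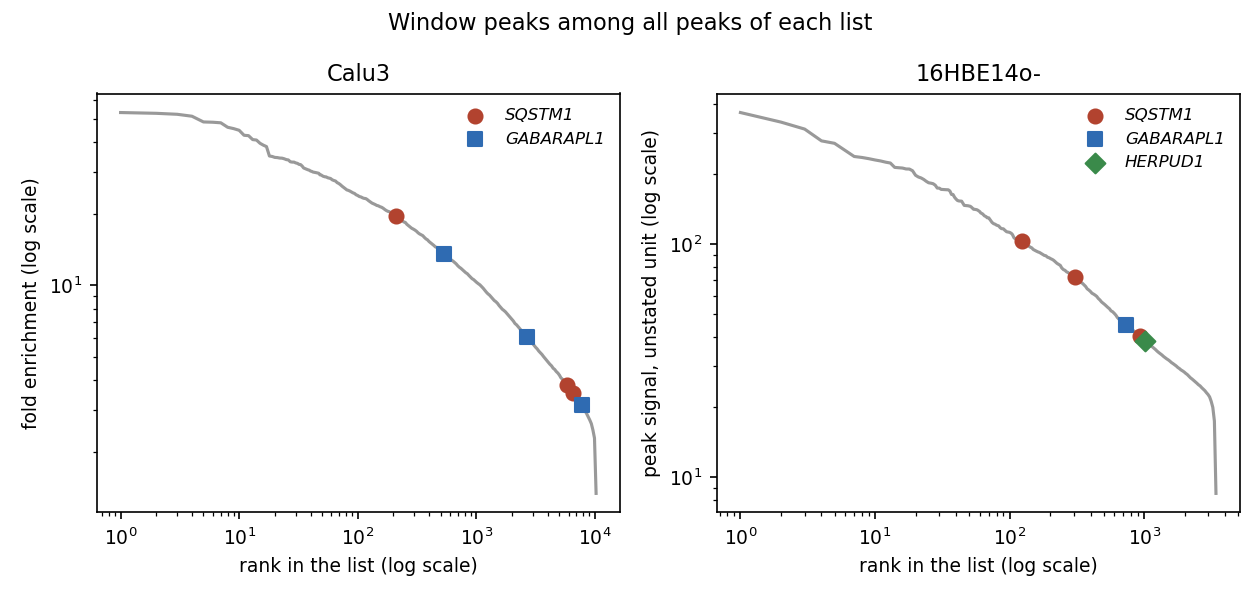
Fold enrichment in Calu3 and peak signal in 16HBE14o- against rank in the list, both axes logarithmic; the grey line is the whole list and the symbols are the window peaks. The leading SQSTM1 peak ranks 211 in Calu3 and 123 in 16HBE14o-, ahead of GABARAPL1 at 539 and 735.

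The peaks nearest to the SQSTM1, GABARAPL1 and HERPUD1 windows on the outside were as follows, with farther ones left out. For MAP1LC3B and CALCOCO2 the nearest summits are given above. Nearest to the SQSTM1 window, 57.6 kb beyond its upstream end, both lists had a peak, with a fold enrichment of 7.82 and rank 1726 in Calu3 and a signal of 45.4 and rank 715 in 16HBE14o-. Beyond the GABARAPL1 window, 2 Calu3 peaks lay 22.2 and 30.0 kb upstream of it, with fold enrichments of 3.43 and 4.23. Nearest to the HERPUD1 window, 67.8 kb upstream of it, was an unshared 16HBE14o- peak with a signal of 28.7 and rank 1890. Next to it, 69.0 kb upstream of the window, lay a shared peak, at rank 6075 in Calu3 and 414 in 16HBE14o-. Inside the windows, the summits farthest from a core were those 20.4 kb from GABARAPL1 in Calu3 and 21.0 kb from HERPUD1 in 16HBE14o-, so no summit lay in the outer 25 kb of any window.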

How the data were processed

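BACH1 ChIP-seq was done in 2 replicates in each of 2 cell lines. Per the labels' protocols, nuclei were lysed, chromatin was sonicated, and fragments of selected size were sequenced on an Illumina instrument. The authors deposited 1 peak list per line, selected by the irreproducible discovery rate (IDR) over both replicates, per the file headers and labels. Positions are on hg19, as the submitters' processing notes state. The sources used here name no aligner, caller, control or depth. The Calu3 values deposited by the authors are a fold enrichment (so read from its format and values), a browser score, and p and q as −log10. Those deposited for 16HBE14o- are a signal on an unstated scale, a browser score, a p column holding only a filler, and a score in the q column that falls below 0 and was not read as a q.

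Windows came from given hg19 positions, and the members and lists were chosen with earlier results of these data known. All 5 genes and all their window peaks are named. Rank 1 is the highest value of column 7, over the rows as deposited. Peaks were shared when they overlapped by at least 1 bp. Distances run to the window core, since the gene table given was on GRCh38 and was used for names and promoters only. The planned count of other autophagy and proteasome genes with a peak needs hg19 gene positions and was not analysed here. No test between groups was possible. Intervals are exact (Clopper-Pearson). They cover counting error only, treat windows or peaks as independent draws, and hold no replicate spread. Coordinates are 1-based. Analyses used pandas 2.3.3, numpy 2.4.6 and scipy 1.17.1 under Python 3.11.15 and were tested on simulated lists. Alternatives changed the threshold, the overlap rule, the window, the ranking column and the tile size.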

Additional observations from a re-analysis of the deposited data

How the results depend on the processing

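Peaks in the windows stayed within 1.5 times the reported 6 in Calu3 and 5 in 16HBE14o- under all alternatives but 1: with only the upper 50% of the list, 3 Calu3 peaks remained, since the 3 weakest fall below its median. Requiring a reciprocal overlap of 50% lowered the shared peaks to 1 in Calu3 and 1 in 16HBE14o-, which leaves GABARAPL1 alone, because the 240 bp peaks cannot cover 50% of the 2000 bp peak at SQSTM1. With summits within 100 bp, 2 peaks were shared in 16HBE14o-. Ranked by column 9, all 5 peaks of 16HBE14o- were in the upper 25%, because each had the highest value of that column, as did 30.9% of the list. Merging overlapping rows moved no single rank of the 11 window peaks by more than 1, whereas ranking by another column changed the rank of each of them. By column 8, the −log10 p, the leading Calu3 peaks ranked 92 at SQSTM1 and 914 at GABARAPL1. The share of tiles with a summit was 13.6% and 38.9% in Calu3, and 4.77% and 15.3% in 16HBE14o-, with tiles of 50 and 200 kb. No paired analysis was possible because each list pools its replicates, and for the same reason no replicate could be left out. Settings that need an hg19 annotation were not run. Depth is unknown and limits what an empty window can show.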
